A study of Mus musculus with 48 samples.

Results

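The matrix metalloproteinases MMP2, MMP3 and MMP14, the related protease ADAMTS1 and the tissue inhibitors TIMP1, TIMP2, TIMP3 and TIMP4 were followed in 3T3-L1 cells, a mouse fibroblast-like line that turns into fat cells under a hormone cocktail. The members were all array probes that the deposited table names with 1 of 9 symbols. This gave 11 probes of 8 genes, out of 24613 probes under 18991 symbols, and ADAMTS5, the remaining symbol, was not analysed here because no probe carries its name. RefSeq lists ADAMTS1 also as an older name of Adamts5, and the table gives no accession, so the ADAMTS1 probes are identified by the table's symbol only and could read either gene. MMP3, TIMP3 and ADAMTS1 were read by 2 probes each and the other genes by 1. All cells of this report were transfected with a pool of siRNAs at 50 nM, either a non-targeting pool (control siRNA) or a SMARTpool against PPARγ (PPARγ KD), before differentiation was started. Confluent cells then received IBMX and dexamethasone for 48 h, followed by insulin and rosiglitazone, an activator of PPARγ, for 48 h. Days are counted from the rosiglitazone treatment, and cells were harvested on day −2 and days 0 to 6 with 3 independent biological replicates of each siRNA and day, which gives 16 groups and 48 arrays. Time in culture, the drugs and the medium changes followed the same calendar and cannot be told apart in these samples, and each target was knocked down by 1 pool only.

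Matrix metalloproteinases are zinc-dependent enzymes that cleave collagens and other proteins of the extracellular matrix, and most are made as inactive precursors. TIMPs are small secreted proteins that bind the active site of these enzymes and block it. MMP14 sits in the cell membrane and activates the precursor of MMP2, a gelatinase that digests denatured collagen and basement membrane collagen, and TIMP2 is both an inhibitor and the adapter that presents this precursor to MMP14. During fat cell formation the fibrillar matrix of the fibroblast is replaced by a basement membrane around the growing cell, which is why these enzymes are studied in adipose tissue.

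Promoters were found in RefSeq (GRCm38.p6) for 7 of the 9 genes, each covering 250 bases before and 50 bases after the annotated start. The promoters of Mmp3, Timp1 and Timp3 are printed because the signals of these 3 genes went through the same low point on day 0, and that of Timp4 because it was the member with lower signal in the PPARγ KD. Capitals mark the AP-1 element TGANTCA and the TATA box TATAAA on either strand, and the nuclear receptor half-site AGGTCA was searched in the same way.
Mmp3 (chr9:7445572-7445871, plus strand): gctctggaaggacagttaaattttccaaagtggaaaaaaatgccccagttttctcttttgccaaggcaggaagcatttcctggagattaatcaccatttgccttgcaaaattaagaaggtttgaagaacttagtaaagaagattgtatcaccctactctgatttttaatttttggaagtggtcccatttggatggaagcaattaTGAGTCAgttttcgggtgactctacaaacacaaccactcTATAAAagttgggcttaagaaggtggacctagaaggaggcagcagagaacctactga
Timp1 (chrX:20869916-20870215, plus strand): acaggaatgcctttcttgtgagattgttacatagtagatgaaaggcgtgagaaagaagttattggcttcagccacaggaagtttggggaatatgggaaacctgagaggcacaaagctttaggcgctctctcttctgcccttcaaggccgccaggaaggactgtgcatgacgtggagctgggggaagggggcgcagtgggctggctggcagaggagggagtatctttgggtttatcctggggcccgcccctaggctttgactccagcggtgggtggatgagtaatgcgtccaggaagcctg
Timp3 (chr10:86300162-86300461, plus strand): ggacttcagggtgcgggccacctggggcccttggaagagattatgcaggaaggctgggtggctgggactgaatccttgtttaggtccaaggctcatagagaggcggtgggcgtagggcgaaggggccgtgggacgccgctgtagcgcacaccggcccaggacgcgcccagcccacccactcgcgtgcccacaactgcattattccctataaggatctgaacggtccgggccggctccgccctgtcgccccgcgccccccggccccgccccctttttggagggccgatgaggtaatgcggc
Timp4 (chr6:115252156-115252455, minus strand): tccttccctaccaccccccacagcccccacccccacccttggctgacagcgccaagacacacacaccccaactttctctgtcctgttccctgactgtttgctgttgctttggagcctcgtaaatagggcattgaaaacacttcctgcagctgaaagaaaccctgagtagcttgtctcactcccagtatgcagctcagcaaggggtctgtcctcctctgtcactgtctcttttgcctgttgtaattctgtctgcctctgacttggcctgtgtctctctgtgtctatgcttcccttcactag
In the Mmp3 promoter the AP-1 element lay at −46 to −40 and the TATA box at −7 to −2, counted from the annotated start as 0, and the motifs do not overlap. Mmp3 was 1 of 7 promoters with the AP-1 element, which 7.81% of all 32851 promoters of the same length hold. The TATA box was in 2 of 7, those of Mmp3 and Adamts1, against 13.6% of all promoters. None of the 7 windows holds the half-site AGGTCA, which 16.3% of all promoters hold, and none holds a pair of half-sites spaced by 1 base, which 0.0396% hold. These are matches of letters in a short window and say nothing about binding.

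The deposited signals are mean bead signals without normalization, and a probe counts as above background here where its detection p is under 0.01. Of the 11 probes, 6 were above background on all 48 arrays and all 11 on at least 3 arrays. The knockdown was read by Pparg probe 6130632, whose log2 signal differed by −2.34 (SE 0.04, limma adjusted p = 9.48e-34), with daily differences between −1.93 and −2.63. The other Pparg probes were 1990168, at −2.51 with daily differences between −1.86 and −3.22, and 2680603, at −1.21. Probe 2680603 was called lower from day 3 on but not on days −2, 0, 1 and 2, at 0, −0.19, −0.25 and −0.47. Arrays of replicate 3 had between 33.45% and 35.39% of probes above background and those of replicates 1 and 2 between 36.77% and 40.42%. Precision is limited by there being 3 arrays per group. Of the fat cell markers, all days together, 11 of 11 had lower signal in the PPARγ KD (median log2 difference −2.12), and their summed signal lay between 10640 and 142000 under control siRNA and between 4345 and 33240 in the PPARγ KD. Of 10 fibroblast and preadipocyte markers, 5 were higher, 0 were lower, and all 10 were above background on every array. Of 8 macrophage genes only CD14 and LYZS were above background, the defining genes CD68, EMR1, CSF1R, PTPRC and ITGAM were not, and none of 6 endothelial genes was. The summed macrophage signal ran from 286.8 to 809.5 under control siRNA and from 318.7 to 725 in the PPARγ KD, and LYZS was higher by 0.32 (limma adjusted p = 0.0134). A smaller share of fat cells and less RNA per fat cell cannot be told apart in whole cultures. The part of cell composition in the results below was not tested.

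Signals are given as log2 of the background-corrected, scaled signal, differences as PPARγ KD minus control siRNA, and each adjusted p comes from limma after a Bonferroni correction for all 24613 probes. The fit treats the days of a replicate as independent once the replicate block is removed. An SE over several days does not account for a siRNA difference that varies between replicates and can be too small. Pairs counted over several days come from the same 3 replicates. Over days −2 to 6 the proteases and inhibitors were mostly higher in the PPARγ KD: 7 of the 11 probes, of MMP3, MMP14, TIMP1, TIMP2, TIMP3 and ADAMTS1, were called higher and 1, of TIMP4, lower. Of all probes tested, 13.1% were called, 6.37% higher and 6.74% lower. Of the 10567 probes above background on at least 3 arrays, as all 11 members were, 3426 were called, 1700 higher and 1726 lower. The correction was then made over those 10567 only. The median log2 difference was 0.34 over the 11 probes and −0.03 over all probes. With Benjamini-Hochberg correction in place of Bonferroni, 10 of 11 probes were called against 30.9% of all probes. Over days 4 to 6, when control cells carried fat cell transcripts at their highest, 5 probes were called higher, those of MMP2, MMP3, MMP14 and TIMP2, and that of TIMP4 lower, against 5.31% of all probes, 1.54% higher and 3.77% lower. Of the same 10567 probes, 1387 were called over these days, 441 higher and 946 lower. Without the replicate block, or without any 1 replicate, the count of members over days 4 to 6 was 3. MMP2, MMP14 and TIMP2 then missed the threshold.

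**Figure D1:**
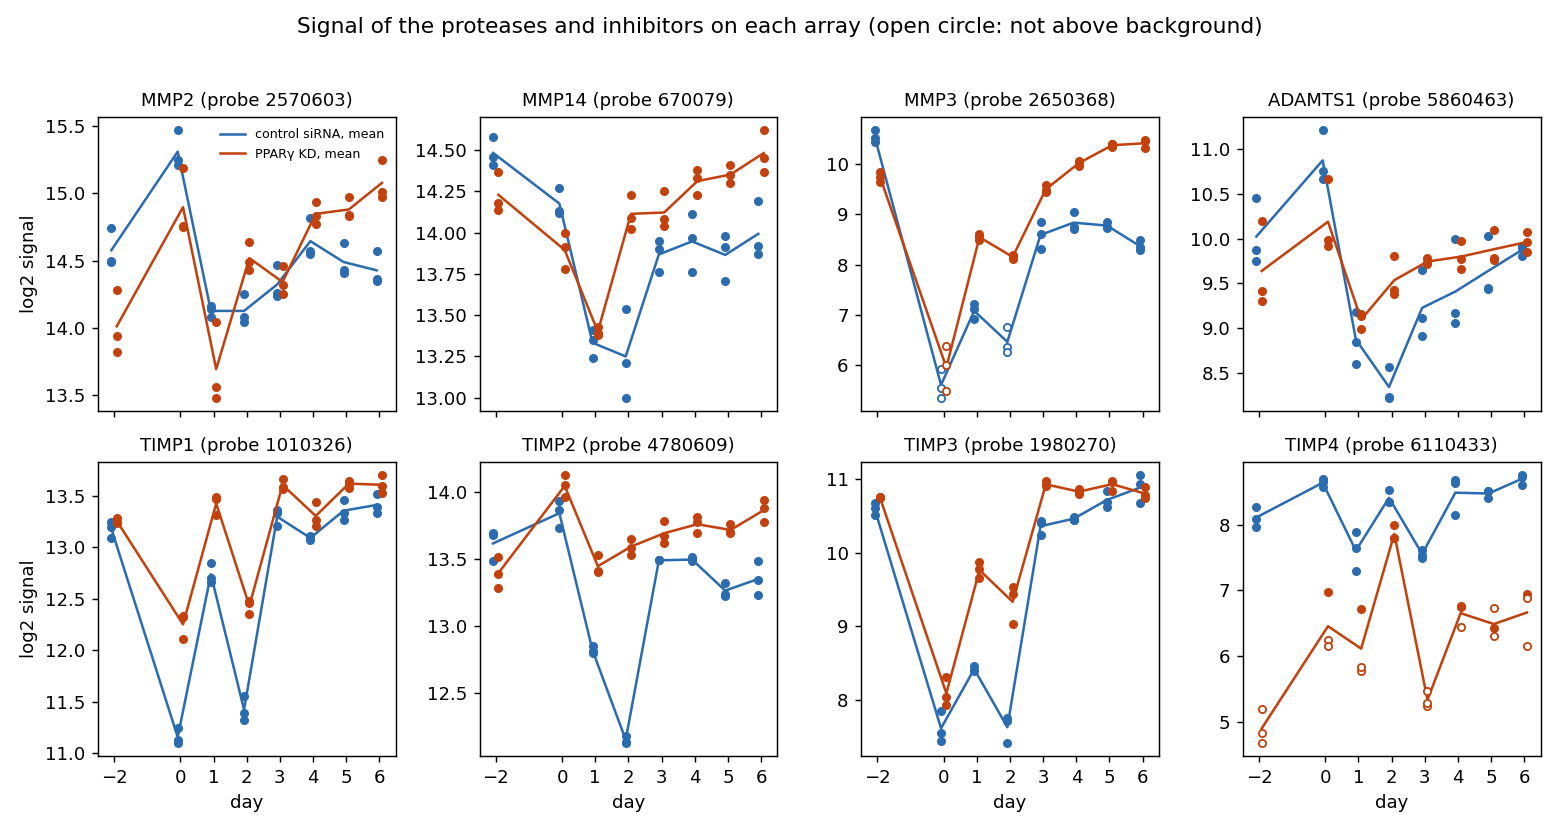
Log2 signal (y axis, a separate range in each panel) by day (x axis) for the brightest probe of each of the 8 genes, with 1 circle per array, lines through the means of 3 replicates, blue for control siRNA and orange for the PPARγ KD, and open circles where the probe was not above background. MMP3, TIMP1 and TIMP3 dip on day 0 and again on day 2, TIMP2 and ADAMTS1 dip on day 2 under control siRNA, and TIMP4 lies lower in the PPARγ KD on every day.

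The members did not differ between the siRNAs to the same extent on each day. On day −2, with 0.861% of all probes called, 3 of the 11 were called and all 3, of MMP2, MMP3 and TIMP4, were lower in the PPARγ KD. The count was 2 on day 0 (3.03% of all probes), TIMP1 higher and TIMP4 lower. It was 7 a day later (2.91%), with 5 higher and 2 lower. Of the lower pair, MMP2 (−0.35 and −0.35) and TIMP4 (−1.31 and −1.21) were not called without replicate 1 or replicate 2, and MMP2 was not called with quantile normalization, without background correction or with a larger offset either. Day 2 had the most, with 8 called and all 8 higher, where 8.92% of all probes were called and the median log2 difference was 1.17 over the 11 probes and −0.12 over all probes. Days 3 and 4 had 3 each (2.76% and 2.4% of all probes), day 5 had 5 (3.24%) and day 6 had 6 (3.88%), each time with TIMP4 as the single lower one. The summed signal of the fibroblast markers on day 2 was also apart, at 71250 to 79040 under control siRNA and 103200 to 110000 in the PPARγ KD.

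**Figure D2:**
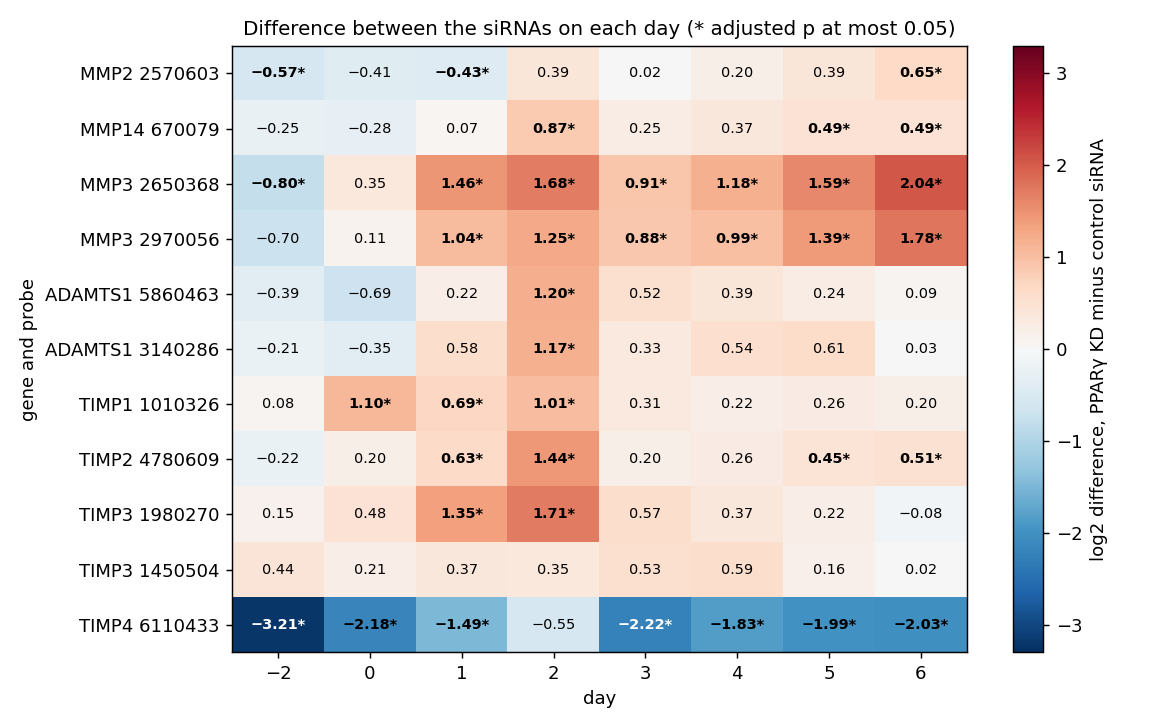
Log2 difference between PPARγ KD and control siRNA for each of the 11 probes (rows) on each of the 8 days (columns), red where the PPARγ KD was higher and blue where it was lower, with an asterisk at a limma adjusted p of at most 0.05. The positive values marked by an asterisk lie on days 0 to 2 for TIMP1, on days 1 and 2 for the bright TIMP3 probe and on day 2 for ADAMTS1. For TIMP2 they lie on days 1, 2, 5 and 6, for MMP14 on days 2, 5 and 6, for MMP2 on day 6 and for MMP3 on days 1 to 6. Some of these calls were lost when 1 replicate was left out.

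MMP2 was called lower in the PPARγ KD on days −2 and 1 and higher on day 6. The day 1 difference was −0.43 (SE 0.08, adjusted p = 0.0335), a call lost without replicate 1 or 2. On day −2 the log2 signals under control siRNA were 14.50, 14.49 and 14.74, and those in the PPARγ KD were 13.94, 13.82 and 14.28. All 3 KD arrays lay below all 3 control arrays, with a difference of −0.57 (SE 0.08, adjusted p = 1.37e-04). On day 6 the control signals were 14.35, 14.36 and 14.57 and the KD signals 14.97, 15.01 and 15.25. The groups again did not overlap, this time with the KD above, and the difference was 0.65 (SE 0.08, adjusted p = 5.13e-06). On day 0 the difference was −0.41 and on day 2 it was 0.39, neither of them called. All 3 KD arrays lay above all 3 control arrays on day 2, and on day 3 the difference was 0.02, also not called. The day on which the sign changed is therefore not settled. Averaged over days 0 to 2 the difference was −0.15 and over days 4 to 6 it was 0.42. The later minus the earlier difference was 0.57 (SE 0.06, adjusted p = 1.02e-06; 0.66, 0.66 and 0.38 in replicates 1, 2 and 3). The opposite signs left an average over all days of 0.03 (SE 0.03, adjusted p = 1). Of the 11 probes, 4 were called in this comparison of late and early days, 1 with a positive and 3 with a negative value, where 3.63% of all probes were called. Without replicate 1 or replicate 2 the MMP2 values kept their sign but not the call, at −0.57 and −0.51 for day −2, 0.67 and 0.65 for day 6, with 0.52 in each case for late minus early.

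MMP2 also had a course of its own between days. Under control siRNA the mean was highest on day 0, at 15.31 (SD 0.14, n = 3), and lowest on days 1 and 2, at 14.13 on each day, a pair that did not differ beyond its spread. In the PPARγ KD the mean was highest on day 6, at 15.08 (SD 0.15), and days 6, 0, 5 and 4 followed each other within the spread of neighbours, while day 1 was the lowest at 13.69 (SD 0.30). The deposited signal of MMP2 reached 47569.1, where the brightest probe of any gene reached 67066.3, so that it was read near the upper end of the range.

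MMP14, the membrane-bound activator of MMP2, was called higher in the PPARγ KD on days 2, 5 and 6. The control signals on day 2 were 13.21, 13.00 and 13.54 and the KD signals 14.09, 14.02 and 14.23. The groups stood apart, with a difference of 0.87 (SE 0.08, adjusted p = 3.23e-08). The differences of days 3 and 4, at 0.25 and 0.37, were not called (adjusted p = 1 for each), and those of days 5 and 6, at 0.49 each (adjusted p = 0.0224 and 0.0206), were not called without any 1 replicate. On day −2 the order was the reverse, with control signals of 14.46, 14.41 and 14.58 and KD signals of 14.14, 14.18 and 14.37, but the difference of −0.25 (SE 0.08) was not called (adjusted p = 1). Over days 4 to 6 the 9 control arrays ran from 13.71 to 14.19 and the 9 KD arrays from 14.23 to 14.62. That is no overlap over these days, with a difference of 0.45 (SE 0.06, adjusted p = 0.00843). Over all days it was 0.25 (SE 0.03, adjusted p = 7.37e-06; KD higher in 17 of 24 pairs of the same day and replicate). Without replicate 2 the value over all days was 0.20 and no longer called (adjusted p = 0.453), and the value over days 4 to 6 was 0.47, 0.37 and 0.50 without replicates 1, 2 and 3 and never called.

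MMP3, stromelysin-1, cleaves a wide range of matrix proteins and activates other metalloproteinases, and it had the largest positive differences among the members. By probe 2650368 the control signals on day −2 were 10.51, 10.43 and 10.66 and the KD signals 9.73, 9.63 and 9.84. The KD lay below, by a difference of −0.80 (SE 0.12, adjusted p = 0.00428), which without replicate 1 or replicate 2 was −0.81 and −0.80 and not called. Probe 2970056 gave −0.70 (SE 0.14) on this day and was not called (adjusted p = 0.521). On day 0 neither siRNA had an array above background, so no fold is given for that day. By day 2 the control arrays, at 6.37, 6.26 and 6.77, were still not above background and the KD arrays, at 8.10, 8.17 and 8.18, all were. This makes the KD at least 2.89-fold brighter on day 2 by this probe and at least 1.60-fold by probe 2970056.

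By day 6 the control signals of MMP3 probe 2650368 had reached 8.28, 8.34 and 8.48, and the KD signals 10.45, 10.46 and 10.30. The groups were well apart, with a difference of 2.04 (SE 0.12, adjusted p = 3.50e-14), which is a 4.11-fold higher signal. Over days 4 to 6 the difference was 1.60 (SE 0.06, adjusted p = 1.97e-11) by this probe and 1.39 (SE 0.06, adjusted p = 8.99e-10) by probe 2970056, with the KD higher in 9 of 9 pairs by each. Over all days the same probes gave 1.05 (SE 0.04, adjusted p = 9.65e-20) and 0.84 (SE 0.05, adjusted p = 2.79e-14; 1.01, 0.58 and 0.93 in replicates 1, 2 and 3). The daily difference by probe 2650368 was smallest on day 3 among days 1 to 6, at 0.91, and was larger on each later day, at 1.18, 1.59 and 2.04. Without replicate 1 the values of days 3 and 4 (0.93 and 1.13) and without replicate 2 that of day 3 (0.79) were not called. The late minus early value of 0.44 (SE 0.10) was not called (adjusted p = 1), but it was called with quantile normalization, at 0.55 (adjusted p = 0.00180), and without background correction, at 0.68.

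ADAMTS1 and ADAMTS5 are both secreted proteases with thrombospondin motifs that cleave the large proteoglycans aggrecan and versican. Of the probes named ADAMTS1, the brighter, 5860463, differed between the siRNAs on day 2, where the control signals were 8.22, 8.23 and 8.56 and the KD signals 9.38, 9.42 and 9.80. The KD lay above on this day, by 1.20 (SE 0.14, adjusted p = 3.88e-06). On day 0 the control signals were 10.66, 10.76 and 11.21 and the KD signals 9.98, 9.92 and 10.67. These overlapped by 1 array and the difference of −0.69 (SE 0.14) was not called (adjusted p = 0.330). Probe 3140286 gave 1.17 on day 2 (SE 0.15, adjusted p = 1.17e-04), with no control array and 2 of 3 KD arrays above background, which bounds the fold only at 1.04. Over all days it was called at 0.34 (SE 0.05, adjusted p = 0.00843), while the brighter probe gave 0.20 (SE 0.05, adjusted p = 1), and 0.25 with a call without replicate 3. Over all days the dimmer probe gave 0.16 without background correction and 0.35 and 0.26 without replicates 1 and 2, none of them called, and on day 2 the brighter probe without replicate 1 gave 1.21 (adjusted p = 0.0594) and the dimmer one without replicate 2 gave 0.97 (adjusted p = 1).

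TIMP1, an inhibitor of most soluble metalloproteinases, had the higher signal with PPARγ KD in each of 24 pairs. On day −2 the siRNAs were close, with control signals of 13.20, 13.09 and 13.25 and KD signals of 13.24, 13.25 and 13.29. On day 0 the control signals had dropped to 11.10, 11.13 and 11.24 and the KD signals to 12.32, 12.33 and 12.11. The groups were apart by 1.10 (SE 0.08, adjusted p = 3.16e-12), a 2.14-fold difference, and they were apart again on day 2 by 1.01 (SE 0.08, adjusted p = 4.11e-11). The day 1 difference of 0.69 was called, but not without replicate 1 or 2 (0.64 and 0.63). Over all days the difference was 0.48 (SE 0.03, adjusted p = 2.62e-15), and over days 4 to 6 it was 0.23 (SE 0.05, adjusted p = 1) with the KD higher in 9 of 9 pairs. The late minus early value was −0.71 (SE 0.06, adjusted p = 3.98e-09), negative in each replicate.

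TIMP2, the inhibitor that also serves as the adapter between MMP14 and the MMP2 precursor, had its widest gap on day 2. The control signals were 12.14, 12.13 and 12.18 and the KD signals 13.58, 13.65 and 13.53. This is a difference of 1.44 (SE 0.07, adjusted p = 2.76e-17), or 2.71-fold, between groups with SDs of 0.03 and 0.06. On day −2 the control signals of 13.69, 13.68 and 13.48 overlapped with the KD signals of 13.39, 13.51 and 13.28. Over all days the difference was 0.43 (SE 0.03, adjusted p = 5.41e-15; 21 of 24 pairs) and over days 4 to 6 0.41 (SE 0.05, adjusted p = 0.00349; 9 of 9 pairs). Without replicate 1, 2 or 3 the last value was 0.38, 0.41 and 0.43 and not called. The calls of days 5 and 6, at 0.45 and 0.51, were also lost without any 1 replicate. The late minus early value of −0.35 (SE 0.06, adjusted p = 0.0149) was not called without replicate 1, 2 or 3 either, at −0.40, −0.33 and −0.32.

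TIMP2 had a narrower course in the PPARγ KD than under control siRNA. Its daily means spanned 0.65 on the log2 scale there, from 13.39 on day −2 to 14.04 on day 0, and 1.69 under control siRNA, from 12.15 on day 2 to 13.84 on day 0. Among the members with all arrays above background, this was the narrowest range of daily means in either siRNA.

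TIMP3 is bound to the matrix and inhibits ADAM and ADAMTS proteases besides the metalloproteinases. Its bright probe 1980270 gave control signals of 7.41, 7.75 and 7.71 on day 2 and KD signals of 9.53, 9.44 and 9.03. The KD was above on this day by 1.71 (SE 0.11, adjusted p = 1.83e-13), or 3.27-fold, and on day 1 by 1.35 (SE 0.11, adjusted p = 2.89e-10). By day 6 the control signals of 10.93, 11.05 and 10.67 and the KD signals of 10.78, 10.89 and 10.74 overlapped, with a difference of −0.08 (SE 0.11, adjusted p = 1). Over all days the difference was 0.59 (SE 0.04, adjusted p = 3.02e-13; 22 of 24 pairs) and over days 4 to 6 0.17 (SE 0.05, adjusted p = 1). The late minus early value was −1.01 (SE 0.09, adjusted p = 3.62e-09), with −1.34, −1.09 and −0.60 in replicates 1, 2 and 3. The other probe, 1450504, was above background on 8 of 48 arrays and gave 0.33 over all days (SE 0.07, adjusted p = 1), or 0.46 with a call without replicate 3.

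TIMP4, the inhibitor known for its expression in heart and adipose tissue, was the member that was lower in the PPARγ KD, in 24 of 24 pairs. All 24 control arrays and 9 of 24 KD arrays were above background. On day −2 the control signals were 8.09, 8.27 and 7.97 and the KD signals 4.83, 4.68 and 5.19, none of the latter above background. The fitted difference was −3.21 (SE 0.20, adjusted p = 8.43e-14), and counted against the background it was at least 3.08-fold lower. On day 3, where again no KD array was above background, it was at least 2.00-fold lower. Over all days the fitted difference was −1.94 (SE 0.07, adjusted p = 9.67e-22; −2.03, −2.18 and −1.61 in replicates 1, 2 and 3). Over days 4 to 6 it was −1.95 (SE 0.10, adjusted p = 1.52e-08), lower in 9 of 9 pairs. Since many KD arrays were not above background, these sizes depend on the background correction: without it they were −1.24 and −1.31, with the same direction and call.

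Day 2 was the exception for TIMP4. The control signals were 8.53, 8.35 and 8.35 and the KD signals 7.80, 7.99 and 7.80, all above background. The KD arrays were still the lower ones, but the difference of −0.55 (SE 0.20) was not called (adjusted p = 1). In the PPARγ KD the signal went from a mean of 6.11 on day 1 to 7.86 on day 2 and 5.34 on day 3, while the control means of these days were 7.61, 8.41 and 7.56. By probe 6130632 the Pparg difference was also smallest on day 2, at −1.93. By probes 1990168 and 2680603 it was smallest on day −2, at −1.86 and 0. The summed signal of the fat cell markers in the PPARγ KD was 5909 to 6612 on day 1, 12910 to 13420 on day 2 and 8715 to 9835 on day 3. Under control siRNA it was 29370 to 35510, 77730 to 88460 and 82590 to 103500 on these days.

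Each of the 11 probes changed over time under control siRNA by limma's F-test over all days against day −2 (23.5% of all probes were called), and each did so in the PPARγ KD (16.5%). Most of the change came in stretches shared by several members. From day −2 to day 0 under control siRNA, 5 probes, of MMP3, TIMP1 and TIMP3, fell and 2, of MMP2 and ADAMTS1, rose (9.06% of all probes called). The dim TIMP3 probe among the 5 was not above background on any array of either day, so its change has no measured size. MMP3 became at least 16.5-fold dimmer by probe 2650368 and at least 8.61-fold by probe 2970056, TIMP3 probe 1980270 fell by 2.99 on the log2 scale (SE 0.11, adjusted p = 9.61e-22) and TIMP1 fell by 2.02 (SE 0.08, adjusted p = 3.24e-21). MMP2 rose by 0.73 (SE 0.08, adjusted p = 2.33e-07) over the same stretch. In the PPARγ KD 5 probes of MMP3, TIMP1 and TIMP3 fell and 3, of MMP2, TIMP2 and TIMP4, rose (7.39%). TIMP4 had 0 of 3 arrays above background on day −2 and 1 of 3 on day 0, so that its fitted 1.56, which was 0.96 without background correction, lies within or near background. In the same cells MMP3 probe 2650368 became at least 9.27-fold dimmer, TIMP3 fell by 2.66 (adjusted p = 5.37e-20) and TIMP1 fell by 1.01 (adjusted p = 4.27e-11). Without replicate 1 the rises of ADAMTS1 under control siRNA (0.89) and of TIMP2 and TIMP4 in the PPARγ KD (0.65 and 1.63) were not called, without replicate 2 that of ADAMTS1 (0.77) was not, and the dim TIMP3 probe was called in neither siRNA without replicate 1 or 2.

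From day 0 to day 2 under control siRNA 5 probes fell, of MMP2, MMP14, TIMP2 and ADAMTS1, and 1, of MMP3, rose, although it was not above background on either day (12.4% of all probes called). ADAMTS1 fell by 2.53 (SE 0.14, adjusted p = 5.97e-16) by its bright probe and TIMP2 by 1.69 (SE 0.07, adjusted p = 1.11e-19). MMP2 fell by 1.19 (SE 0.08, adjusted p = 1.31e-13) and MMP14 fell by 0.93 (SE 0.08, adjusted p = 4.60e-09). In the PPARγ KD 4 probes rose, of MMP3, TIMP3 and TIMP4, and 2, of TIMP2 and ADAMTS1, fell (5.06%), with MMP14 at 0.22 (adjusted p = 1) and MMP2 at −0.38 (adjusted p = 0.310). The rise of MMP3 in the KD was at least 3.09-fold by probe 2650368 and at least 1.7-fold by probe 2970056. That of TIMP3 in the KD was 1.25 (SE 0.11, adjusted p = 2.96e-09). Not called were MMP3 under control siRNA without replicate 1 (0.87), TIMP4 in the KD without replicate 1 or 2 (1.33 and 1.19), ADAMTS1 probe 3140286 in the KD without replicate 1 (−1.16), and TIMP2 in the KD without any 1 replicate (−0.45, −0.44 and −0.47).

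From day 2 to day 4 under control siRNA 9 probes rose and none fell (11% of all probes called), TIMP4 and the dim TIMP3 probe being the exceptions. TIMP3 rose by 2.84 (SE 0.11, adjusted p = 5.79e-21), TIMP1 by 1.67 (SE 0.08, adjusted p = 2.72e-18) and TIMP2 by 1.34 (SE 0.07, adjusted p = 2.85e-16). MMP3 rose by at least 4.63-fold by probe 2650368 and at least 2.52-fold by probe 2970056. In the PPARγ KD 4 rose, of MMP3, TIMP1 and TIMP3, and TIMP4 fell (2.58%), TIMP4 by a change of −1.21 (SE 0.20, adjusted p = 0.0155) that was not called without replicate 1 or 2 (−1.29 and −1.19). Under control siRNA the rises of MMP14 (0.67) and both ADAMTS1 probes (1.13 and 1.15) were not called without replicate 1, that of ADAMTS1 probe 3140286 (1.11) without replicate 2, nor that of MMP2 without any 1 replicate (0.53, 0.53 and 0.50). From day 4 to day 6 no member was called in either siRNA (0.67% of all probes with control siRNA, 0.353% with PPARγ KD). The largest fitted changes there were 0.72 for ADAMTS1 probe 3140286 with control siRNA and 0.39 for MMP3 probe 2650368 with PPARγ KD.

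**Figure D3:**
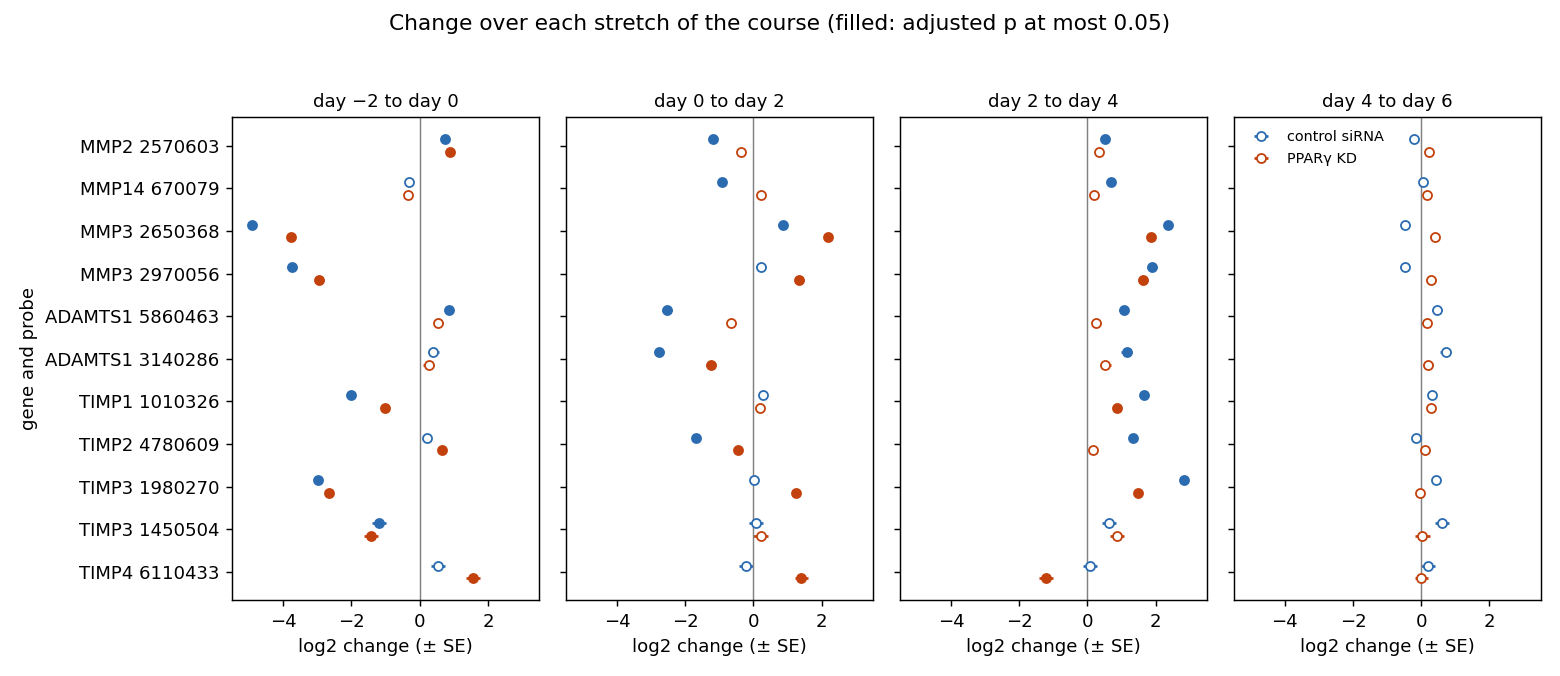
Log2 change of each of the 11 probes (rows) over 4 stretches of the course (panels), with bars for 1 SE, blue for control siRNA and orange for the PPARγ KD, and filled circles at a limma adjusted p of at most 0.05. MMP3, TIMP1 and TIMP3 fell from day −2 to day 0 in both siRNAs, MMP2, MMP14, TIMP2 and ADAMTS1 fell from day 0 to day 2 under control siRNA by more than the change in the PPARγ KD, where MMP14 stood at 0.22, and no circle of the last panel is filled.

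The difference between these changes was tested directly, as the change in the PPARγ KD minus that under control siRNA, a comparison chosen after the data had been seen. From day 0 to day 2 it was called for 8 probes, all positive, against 4.12% of all probes. The MMP3 value among the 8, fitted at 1.34, rests on 3 groups with no array above background (day 0 in both siRNAs and day 2 under control siRNA) and lay between 0.88 and 1.53 over the alternatives. The difference was 1.23 for TIMP2 (SE 0.10, adjusted p = 2.81e-10), 1.15 for MMP14 (SE 0.12, adjusted p = 1.94e-07), 0.81 for MMP2 (SE 0.11, adjusted p = 1.23e-04) and 1.88 for ADAMTS1 (SE 0.19, adjusted p = 2.36e-07). From day −2 to day 0 it was called for 2 probes (0.662%), TIMP1 at 1.02 (SE 0.11, adjusted p = 6.66e-07) and MMP3 at 1.15 (SE 0.18, adjusted p = 0.00317), the latter with both day 0 groups at background. From day 2 to day 4 it was called for 3 probes (2.15%), all negative, TIMP1 at −0.79, TIMP2 at −1.17 and TIMP3 at −1.34. From day 4 to day 6 it was called for none by limma (0.171%). TIMP2 in both stretches, MMP14 and the bright ADAMTS1 probe were called without any 1 replicate. Not called were, from day 0 to day 2, MMP2 (0.74 and 0.81 without replicates 1 and 2), MMP3 (1.36 and 1.12), TIMP4 (1.59 and 1.38), ADAMTS1 probe 3140286 (1.56 and 1.37) and TIMP3 without replicate 1 (1.08). The same held from day −2 to day 0 for TIMP1 without replicate 1 (0.94) and MMP3 without replicates 1 and 3 (1.11 and 1.08), and from day 2 to day 4 for TIMP1 without replicates 1 and 2 (−0.69 and −0.77) and TIMP3 without replicate 1 (−1.10).

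Among the other genes of the pathway, 12 were called by their brightest probe, and the counts below stand beside 13.1% of all probes called over days −2 to 6 and 5.31% over days 4 to 6. Nothing particular to a list is read from its count. Of 19 other MMPs on the array 5 were above background on at least 3 arrays, and 2 were called higher in the PPARγ KD and 1 lower over all days. MMP9, the other gelatinase, was higher by 0.69 (SE 0.05, adjusted p = 8.58e-11) and MMP23 by 0.24 (SE 0.03, adjusted p = 8.45e-07). MMP13, a collagenase, differed by −0.61 (SE 0.05, adjusted p = 2.42e-09), being above background on 18 control and 8 KD arrays. Its other probe, 3940097, gave −0.05, was not called and was above background on no array. Over days 4 to 6 MMP9 and MMP23 were still called, at 0.63 and 0.33, and MMP13 at −0.08 was not (adjusted p = 1).

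Of 14 other ADAMTS proteases 4 were above background, with 2 called higher and 1 lower over all days. ADAMTS2, which trims the ends of procollagen, was higher by 0.54 (SE 0.03, adjusted p = 2.00e-16) by its brightest probe and by 0.62 and 0.74 by the other 2 probes. ADAMTS4, an aggrecanase, was higher by 0.33 (SE 0.03, adjusted p = 7.75e-08) and ADAMTS15 differed by −0.45 (SE 0.06, adjusted p = 2.10e-05), being above background on 15 control and 6 KD arrays. Of 9 ADAM proteases, which are anchored in the membrane, ADAM8 was called higher at 0.33 and ADAM12 lower at −0.82 (SE 0.06, adjusted p = 2.78e-12), and none was called over days 4 to 6. For both genes the second probe gave the same direction, at 0.45 and −0.40. ADAM8 was above background on 6 control and 14 KD arrays by its brightest probe, and on 2 and 9 by the second. The second ADAM12 probe was above background on 3 control arrays and no KD array.

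Of 9 other regulators 3 were called higher and none lower, over all days and again over days 4 to 6. They were RECK, a membrane-anchored inhibitor of metalloproteinases, at 0.47 (SE 0.04, adjusted p = 1.64e-10), LRP1, the receptor that clears several proteases and inhibitors from the cell surface, at 0.40 (SE 0.03, adjusted p = 4.59e-10), and THBS2, a matrix protein that binds MMP2, at 0.18 (SE 0.03, adjusted p = 0.00234). THBS2 stood at 0.65 over days 4 to 6 (SE 0.05). Of 7 proteoglycans and ADAMTS substrates only LUM was called, at −0.56 (SE 0.05, adjusted p = 7.40e-10), and aggrecan and versican gave −0.06 and 0.21, neither called. The median log2 difference over all days was between −0.06 and −0.01 in the 5 lists, against −0.03 over all probes.

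**Figure D4:**
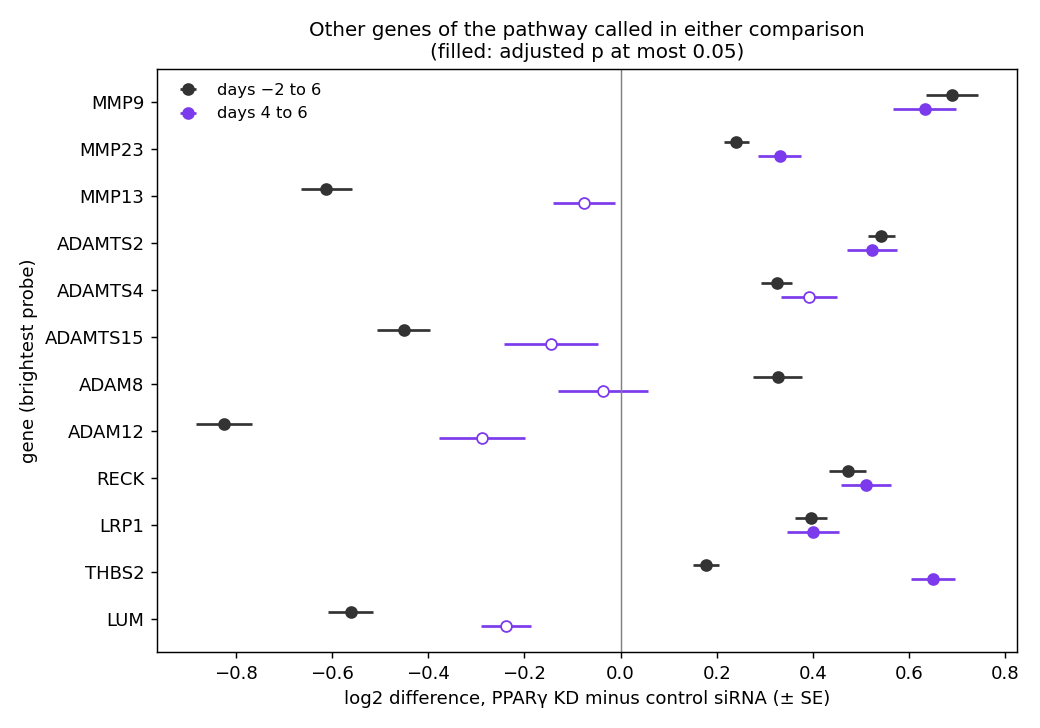
Log2 difference between PPARγ KD and control siRNA (x axis, bars for 1 SE) for the 12 other pathway genes with a called probe, each by its brightest probe, over days −2 to 6 (black) and days 4 to 6 (purple), filled at a limma adjusted p of at most 0.05. MMP9, MMP23, ADAMTS2, RECK, LRP1 and THBS2 are filled and positive in both comparisons, and the lower genes MMP13, ADAMTS15, ADAM12 and LUM are open over days 4 to 6.

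Likeness of course was described by Pearson's r over the 16 means per siRNA and day, among 9217 probes above background on at least 24 arrays. These means share arrays and normalization, so r is a description. They also hold both siRNAs, so genes that differ between the siRNAs in the same direction can be alike through that difference alone. Within the family the courses of TIMP1 and TIMP3 (r = 0.92), MMP3 and TIMP3 (0.91) and MMP3 and TIMP1 (0.85) ran close, and so did those of TIMP2 and ADAMTS1 (0.83) and of MMP2 and ADAMTS1 (0.77). TIMP4 had negative values against TIMP1 (−0.44) and MMP3 (−0.39). The 2 probes of MMP3 gave 0.99 and those of ADAMTS1 0.94.

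The non-member genes closest to each member were also listed. For TIMP4 they were PPARG (0.91), TNS1 (0.89) and SERPINA3N (0.88). PPARG is the target of the knockdown and, like TIMP4, had lower signal in the PPARγ KD. For TIMP3 they were GALNTL4 (0.99), WISP1 (0.98) and TBXA2R (0.98), and for TIMP1 WISP1 again (0.96), SLC1A4 (0.95) and PLSCR2 (0.94). For MMP3 they were GPR85 (0.96), ARHGEF10L (0.95) and TMEM166 (0.95). MMP14 was closest to the lysosomal enzyme genes GLB1 (0.96) and PPT1 (0.96), followed by LOC100046056 (0.95), and MMP2 to SLC35F5 (0.94), EPHB6 (0.93) and IL11RA1 (0.93). TIMP2 was closest to PLAC8 (0.97), NFAT5 (0.96) and the laminin gene LAMB2 (0.95), and ADAMTS1 to BICC1, ANTXR1 and AI449175 (0.96, 0.95 and 0.95).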

How the data were processed

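RNA of 48 cultures was read on Illumina mouse arrays. The authors deposited, per probe and array, the mean bead intensity from BeadStudio 3.3.7 without normalization, and for each a detection fraction (1 minus a detection p-value). The rank-invariant normalization and batch removal of the methods are not in these values. Intensities were background-corrected here with limma 3.58.1 in R 4.3.3 (normexp on detection p-values, offset 16), scaled on rank-invariant probes (factors 0.730 to 1.58) and fitted as log2 values (lmFit, eBayes) on 16 siRNA-by-day groups with replicate number as a block. Calls needed a Bonferroni adjusted p up to 0.05. The fit for days 4 to 6 used only those 18 arrays. Same-numbered arrays deviated together (r 0.544 to 0.914 in 24 pairs), so the numbers were taken as pairs. A group with no array above background was bounded by the lowest signal above background. Members, lists and tests were chosen with earlier results of these data known. Named pathway genes are those with a called probe over days −2 to 6 or 4 to 6, by their brightest probe, and the 3 genes most alike to each member were named. Muscle and interferon lists were also measured: 0 of 6 muscle genes were called, and of 9 interferon response genes 3 were called higher and 0 lower. Normalization, background, dim filter, block, correction, variance trend and replicates were varied. Fits were tested on simulated data. Figures were drawn with matplotlib.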

Additional observations from a re-analysis of the deposited data

Results flagged for a closer look

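The following values differed between the siRNAs or between early and late days by a direct test in the limma fit. The difference of PPARγ KD minus control siRNA over days 4 to 6, less that over days 0 to 2, was 0.566 for MMP2, −0.706 for TIMP1, −0.348 for TIMP2 and −1.01 for TIMP3 probe 1980270. The change from day −2 to day 0 in the PPARγ KD, less that under control siRNA, was 1.145 for MMP3 probe 2650368 and 1.017 for TIMP1. Both day 0 groups of MMP3 had no array above background, so its value has no exact size. The same quantity from day 0 to day 2 was 1.516 and 1.881 for the ADAMTS1 probes 3140286 and 5860463, 1.146 for MMP14, 0.806 for MMP2, 1.336 for MMP3 probe 2650368, 1.233 for TIMP2, 1.232 for TIMP3 probe 1980270 and 1.636 for TIMP4. The MMP3 value again rests on groups with no array above background (day 0 in both siRNAs, day 2 under control siRNA), and TIMP4 in the PPARγ KD had 1 of 3 arrays above background on day 0. ADAMTS1 probe 3140286 had no control array and 2 of 3 KD arrays above background on day 2. Its value lay between 0.83 and 1.62 over the alternatives. From day 2 to day 4 it was −0.794 for TIMP1, −1.174 for TIMP2 and −1.34 for TIMP3 probe 1980270. The groups hold 3 arrays each, so single arrays were not examined for outlying values.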

How the results depend on the processing

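The count of members called over days −2 to 6 stayed between 6 and 10 of 11 under all alternatives. Over days 4 to 6 it was 6, and 3 without the replicate block, 11 with Benjamini-Hochberg correction and 3 without each replicate. For late minus early it was 4, and 6 without background correction, 2 without the block, 8 with Benjamini-Hochberg and between 2 and 3 without 1 replicate. By day 37 of 88 tests were called, 56 with Benjamini-Hochberg and between 20 and 30 without 1 replicate. The PPARγ siRNA course called 11, and between 7 and 11 without 1 replicate, and its stretches 19 of 44, and between 12 and 18. The difference of these changes between the siRNAs was called in 13 of 44 tests, 8 without the replicate block, 22 with Benjamini-Hochberg and between 4 and 12 without 1 replicate. Counts over all probes moved likewise, from 3227 over days −2 to 6 to 1769 without the block, 1814 and 1749 without replicates 1 and 2, and 7605 with Benjamini-Hochberg.

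Of the values of single members under all alternatives, 1072 kept direction and side of the threshold, 140 missed the threshold, 18 newly passed it and 10 changed sign. The 140 were mostly without replicate 1 (46), without replicate 2 (32), without the block (32) and without replicate 3 (16). The 10 were late minus early values that were never called. ADAMTS1 probe 3140286 (−0.073) was 0.044 without background correction, 0.043 with offset 50 and between −0.255 and 0.065 without 1 replicate. ADAMTS1 probe 5860463 (−0.004) was 0.059 with quantile normalization, 0.046 without background correction, 0.018 with offset 50 and between −0.082 and 0.065 without 1 replicate. TIMP3 probe 1450504 (−0.055) was 0.026 with offset 50 and between −0.151 and 0.017 without 1 replicate. The cause was not tested. The array chip was not used as a block, since the column names do not give it. Signal over background limits MMP3 on day 0 and TIMP4 in the PPARγ KD.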
